A study of Mus musculus with 6 samples.

Results

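Transcripts of 10 imprinted growth genes were compared in the liver of 21-day-old mice breastfed by triclosan-exposed or vehicle mothers. The genes were taken by symbol from the table of abundances, as 10 of 51912 genes listed, and are H19, Igf2, Dlk1, Meg3, Mest, Peg3, Plagl1, Cdkn1c, Grb10 and Slc38a4. Triclosan (TCS) is an antimicrobial additive of consumer products, and the study asked what exposure through milk does to the newborn liver. The vehicle group held 3 samples and the TCS group held 3 samples, all of C57/B6 mice with no genetic modification named. The labels give the TCS exposure as 120 ppm and place it in the milk of the nursing females. The study's methods instead place TCS in the mothers' chow through pregnancy and lactation. In milk from the stomachs of the young the study measured a concentration far below that dose. Exposure before birth and through milk cannot be told apart. Each sample was a pool of 3 mice according to the methods, which also name males, and neither group had a sample at another age.

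Imprinted genes are transcribed mainly from the copy inherited from 1 parent. Many of them act on fetal growth: paternally expressed genes such as Igf2 tend to promote it, and maternally expressed genes such as Cdkn1c and Grb10 tend to restrain it. In the mouse liver H19, Igf2 and Dlk1 are abundant before birth and are switched down over the weeks that follow, within a wider program shared by many of these genes. Of the genes compared here, H19, Meg3, Cdkn1c and Grb10 are known as maternally expressed outside the brain, and the other 6 as paternally expressed. Abundance was read over both alleles, so nothing here says which allele was transcribed.

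H19, Igf2 and Mest are the members whose groups did not overlap, H19 and Igf2 with TCS lower, as for 4.61% of all genes tested, and Mest with TCS higher, as for 25.1% of them, so that the separation of Mest is no more than the background. Each of these loci holds a microRNA gene. The mature microRNAs from RefSeq (GRCm38.p6) are shown because these small RNAs are the other known products of the same loci, with the seed, bases 2 to 8, in capitals.
miR-675-5p: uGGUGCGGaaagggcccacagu
miR-675-3p: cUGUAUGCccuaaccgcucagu
miR-483-5p: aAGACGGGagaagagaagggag
miR-483-3p: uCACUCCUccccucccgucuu
miR-335-5p: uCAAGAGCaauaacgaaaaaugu
miR-335-3p: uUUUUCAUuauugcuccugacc
The miR-675 arms lie in an exon of H19 at chr7:142577112-142577133 and chr7:142577078-142577099, on the minus strand. The miR-483 arms lie inside Igf2 but in none of its exons, at chr7:142654968-142654989 and chr7:142654932-142654952 on the minus strand. The miR-335 arms lie inside Mest but in none of its exons, at chr6:30741314-30741336 and chr6:30741354-30741375 on the plus strand. No seed was shared between these 6 sequences. Their precursor genes Mir675, Mir483 and Mir335 were listed at 0 TPM in all 6 samples, and mature microRNAs were not measured.

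Promoter windows of 300 bases are shown for Igf2 and Mest, because each gene starts at more than 1 promoter and the gene-level values add their output together. They span a RefSeq start in GRCm38.p6, most of the window lying before it, and capitals mark the letters GGGCGG, searched on both strands. Of each gene's windows the one with the most such matches, then the most CG pairs, is printed.
Igf2, chr7:142657447-142657746, minus strand: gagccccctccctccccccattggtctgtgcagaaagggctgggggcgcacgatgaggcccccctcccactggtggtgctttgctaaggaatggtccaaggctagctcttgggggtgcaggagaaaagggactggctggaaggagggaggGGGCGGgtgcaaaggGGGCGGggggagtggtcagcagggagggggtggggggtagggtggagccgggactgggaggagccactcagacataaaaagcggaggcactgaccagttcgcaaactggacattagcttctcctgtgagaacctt
Mest, chr6:30737800-30738099, plus strand: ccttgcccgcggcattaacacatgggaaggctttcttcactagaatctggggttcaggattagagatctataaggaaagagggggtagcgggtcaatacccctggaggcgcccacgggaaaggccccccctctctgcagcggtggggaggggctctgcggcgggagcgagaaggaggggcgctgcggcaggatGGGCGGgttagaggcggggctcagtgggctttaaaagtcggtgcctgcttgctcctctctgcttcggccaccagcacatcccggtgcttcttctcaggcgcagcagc
RefSeq gives 4 such windows for Igf2, of which 2 hold GGGCGG, and 3 for Mest, all of which hold it. The Mest windows that start at chr6:30737800 and chr6:30737803 are nearly the same and share their match. The counts of windows therefore include that match more than once. Across the members 9 of 17 windows hold these letters, from 8 genes with an entry, against 35.7% of 32851 windows over all genes. The match describes letters only, and abundances summed over a gene do not show which promoter was in use.

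The members ranged from near 0 to among the most abundant transcripts of the liver. Values are in TPM, a transcript abundance scaled for gene length and to a fixed total per sample, so levels of different genes can be set side by side. Slc38a4, a sodium-coupled neutral amino acid transporter of liver and placenta, was the most abundant at 402 ± 44.2 TPM in vehicle and 374 ± 38.5 TPM in TCS (SD, n = 3 in each group, as for all values with an SD here). It stood at the 99.0 percentile of genes with any signal in vehicle liver, so the name of genes silenced after birth does not describe it at this age. H19, a maternally expressed noncoding RNA, followed at 389.667 TPM in vehicle. This was also at the 99.0 percentile, so H19 was not silent in vehicle liver at this age either. At the other end Dlk1, a transmembrane protein related to Notch ligands, stayed below 1 TPM in all 6 samples. The order of the others in vehicle liver was Igf2, Peg3, Cdkn1c, Grb10, Meg3, Mest and Plagl1, from a mean of 26.9 TPM down to 2.26 TPM.

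Several neighbours in this order could not be separated. In vehicle liver the samples of Slc38a4 and H19, Igf2 and Peg3, Cdkn1c and Grb10, Grb10 and Meg3, and Meg3 and Mest overlapped, whereas those of H19 and Igf2, Peg3 and Cdkn1c, Mest and Plagl1, and Plagl1 and Dlk1 did not. In TCS liver Slc38a4 stood clear of H19 and H19 stood clear of Peg3. Igf2 held rank 3 of the 10 genes in vehicle and rank 8 in TCS. No younger liver was measured, so the decline after birth itself was not observed here.

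**Figure D1:**
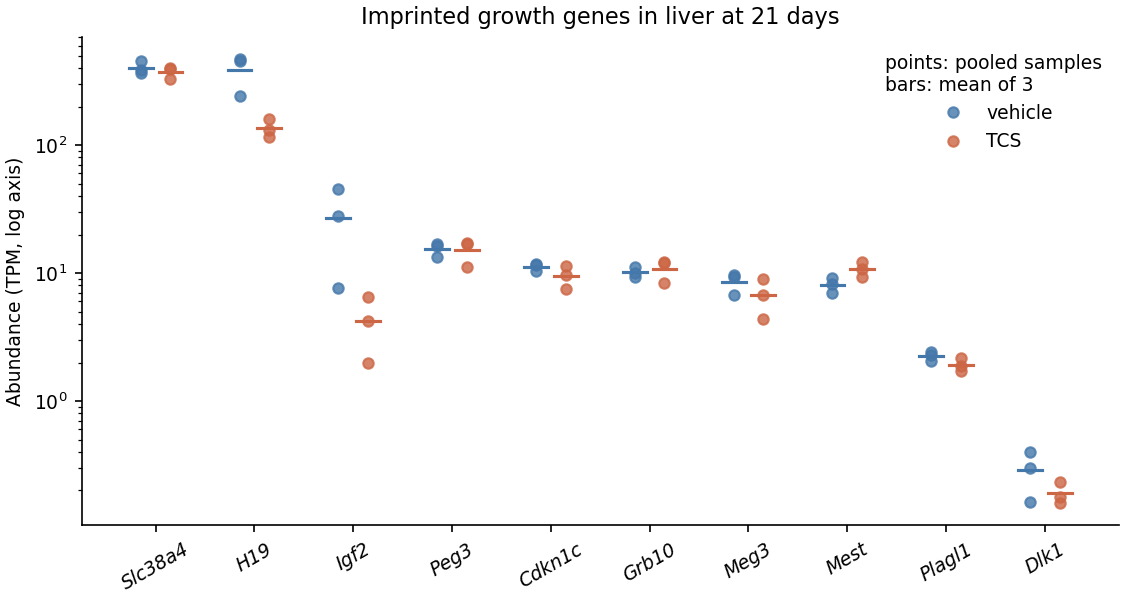
Abundance of the 10 genes in TPM on a log axis, with a point for each pooled sample and a bar at the mean of 3, vehicle in blue and TCS in orange. H19 and Igf2 have all TCS points below all vehicle points, Mest has them above, and the points of the other 7 genes overlap.

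In TCS liver the abundance of H19 and Igf2 was lower than in vehicle liver in every sample, that of Mest was higher in every sample, and none of the 3 passed the test over all genes. The mean of H19 was 2.87 times lower with TCS, that of Igf2 6.32 times lower and that of Mest 1.33 times higher. The other 6 genes tested, among them the growth restrainers Cdkn1c and Grb10, had groups that overlapped. The test was limma's moderated test on log2(TPM + 1) over the 13325 genes that reached 1 TPM in 3 or more samples, with a Benjamini-Hochberg adjusted p under 0.05 as the threshold. Of the 10 members 9 were tested, Dlk1 being too low, and 0 passed, while 0.173% of all genes tested did, 0.0901% with TCS lower and 0.0826% with TCS higher. At an unadjusted p under 0.05 there were 2 members lower with TCS, H19 and Igf2, against 3.5% of all genes, and 1 higher, Mest, against 19.5%. These shares rest on the scaling: with median-of-ratios rescaling of the samples they were 8.76% lower and 8.29% higher, and 4 members were lower, H19, Igf2, Cdkn1c and Slc38a4, and 0 higher. Groups that did not overlap then numbered 4 members with TCS lower, H19, Igf2, Plagl1 and Slc38a4, against 12.4% of all genes, and 1 with TCS higher, Mest, against 11.7%, and still 0 passed the threshold.

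Most members lay below 0 under each scaling tried, whereas the place of the other genes depended on it. All log2 fold changes are on the scale of log2(TPM + 1), TCS minus vehicle, which understates changes of genes near or below 1 TPM. A log2 fold change below 0 was found for 7 of 9 members and for 25.2% of all genes tested, or for 8 of 9 members and 50.3% of all genes with median-of-ratios rescaling. The median was -0.16 over the 9 members and 0.13 over all genes tested. Set against that all-gene median, 8 of 9 members lay below it, Mest being the exception. Among maternally expressed members 3 of 4 had a value below 0, and among paternally expressed members 4 of 5, so both kinds lay on both sides of 0, Grb10 being the maternal exception and lying below 0 once rescaled. The members were chosen together from 8 chromosomal neighbourhoods and are not independent of each other.

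**Figure D2:**
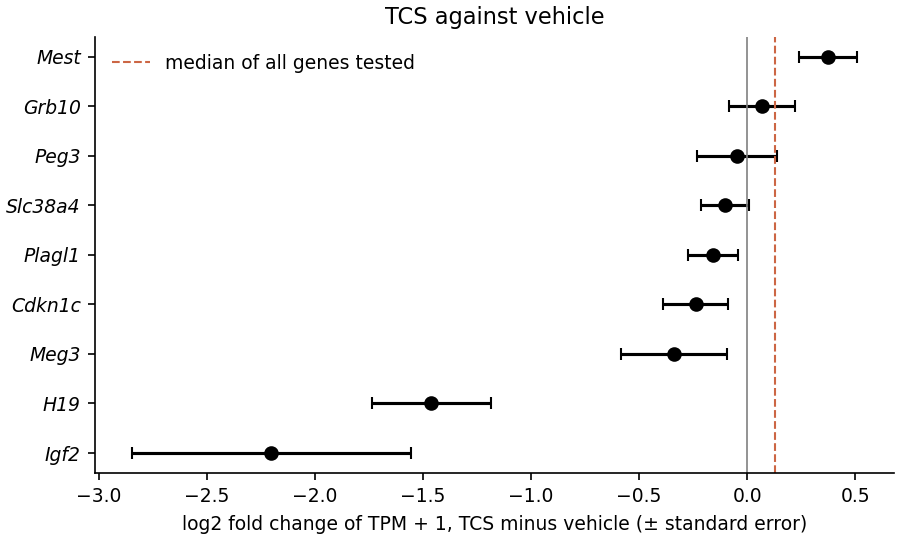
Log2 fold change of TPM + 1, TCS minus vehicle, for the 9 members tested, with bars of ± 1 standard error, a grey line at 0 and a dashed line at the median of all genes tested. Igf2 lies farthest to the left at -2.20, H19 follows at -1.46, and Mest lies farthest to the right at 0.38.

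H19 and Igf2 are neighbours on mouse chromosome 7 and are known to share enhancers, which act on H19 on the maternal chromosome and on Igf2 on the paternal one. In the GENCODE annotation of GRCm38 H19 (ENSMUSG00000000031) lies at chr7:142575529-142578143 and Igf2 (ENSMUSG00000048583) at chr7:142650766-142666816, both on the minus strand and 72.6 kb apart. H19 was at 471, 240 and 458 TPM in the vehicle samples and at 115, 161 and 132 TPM in the TCS samples. All TCS samples lay below the lowest vehicle sample, and vehicle sample 2 stood between the TCS samples and the other 2 vehicle samples. The log2 fold change of H19 was -1.46 (SE 0.28) with an adjusted p of 0.0866 by limma and an unadjusted p of 0.00149. Only 62 of the 13325 genes tested had a lower log2 fold change.

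Igf2 encodes insulin-like growth factor 2, a fetal growth factor that signals mainly through the IGF1 receptor. It was at 7.63, 45.1 and 27.9 TPM in the vehicle samples and at 2, 6.56 and 4.20 TPM in the TCS samples. The groups did not overlap, but the lowest vehicle sample and the highest TCS sample were close to each other. The log2 fold change of Igf2 was -2.20 (SE 0.65) with an adjusted p of 0.134 by limma, and 11 genes tested had a lower value. The spread within groups was wide: the coefficient of variation was 69.8% in vehicle, higher than in 96.0% of genes tested, and 53.6% in TCS, higher than in 95.5%. Without vehicle sample 1 the log2 fold change of Igf2 was -2.90, and without vehicle sample 2 it was -1.69.

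The vehicle samples ordered H19 and Igf2 in opposite ways. Sample 2 had the lowest H19 and the highest Igf2 of its group, and sample 1 the highest H19 and the lowest Igf2. The H19 values of vehicle samples 1 and 3 were close, at 471 and 458 TPM. In the TCS group both genes had the same order, highest in sample 2 and lowest in sample 1. The ratio of H19 to Igf2 was 61.7, 5.32 and 16.4 in vehicle and 57.5, 24.5 and 31.4 in TCS, with overlap. Both genes were thus lower with TCS while their ratio did not separate the groups. Over the 10 genes together, the summed abundance was 902, 790 and 931 TPM in vehicle and 490, 624 and 595 TPM in TCS. H19 made up 52.2%, 30.4% and 49.2% of it in vehicle and 23.5%, 25.8% and 22.2% in TCS.

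Genes of other cell types differed between samples, and they did so within groups. The 8 skeletal muscle markers summed to 288.5, 11.3 and 50.1 TPM in vehicle and to 87.2, 422 and 332 TPM in TCS, and 8 markers of the exocrine pancreas to 172, 74.1 and 539.5 TPM in vehicle and 9.82, 572 and 57.1 TPM in TCS. Muscle is a tissue known to transcribe H19, and within each group the samples had the same order by H19 as by the sum of muscle markers. Between groups the 2 went opposite ways. All 7 muscle markers tested had a log2 fold change above 0, with overlap, whereas H19 was lower with TCS. Orders of 3 samples are a description only, and whether muscle RNA added to the H19 values was not tested. With the muscle level as a covariate, chosen after seeing the data, the value for H19 was -1.86 on the log2 scale (SE 0.21, adjusted p = 0.117 by limma) and that for Igf2 -1.62 (adjusted p = 0.397). With the pancreas level in its place these were -1.26 (adjusted p = 0.147) and -1.98 (adjusted p = 0.202).

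Sums of markers of the liver's own cells varied less between samples. Hepatocyte markers, albumin among them, summed to 126017, 134171 and 131016 TPM in vehicle and to 114913, 113092 and 111069 TPM in TCS, lower in every TCS sample. Sums for stellate, endothelial, Kupffer, cholangiocyte and lymphocyte markers overlapped between the groups, with neutrophil markers at 57.5 to 131 TPM in vehicle and 48.4 to 82.1 TPM in TCS. Erythroid markers summed to 4880 to 5287 TPM in vehicle and to 4279 to 4779 TPM in TCS, without overlap. These 2 sums rest mostly on albumin and on globins. Of 8 hepatocyte genes tested, 4 were lower without overlap and 1 had a log2 fold change above 0. Of 9 erythroid genes tested, 2 were lower without overlap and 3 had a value above 0. The stellate sum also hides markers on both sides, since 5 of its 15 genes were higher and 1 lower at an unadjusted p under 0.05, or 2 and 4 with median-of-ratios rescaling. No marker of any of the 10 lists passed the test. In these bulk samples fewer cells of a type and less RNA per cell cannot be told apart, and the part of these markers in the result was not tested further.

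Afp, the fetal counterpart of albumin, is the classic liver gene that is switched down after birth. It was at 7.30, 104 and 171 TPM in vehicle and at 3.44, 15.5 and 7.27 TPM in TCS, with a log2 fold change of -2.65 (adjusted p = 0.230 by limma). The groups of Afp overlapped through vehicle sample 1, which was also the vehicle sample with the lowest Igf2. Over the 6 samples Igf2 and Afp had r = 0.945 on the log2 scale, H19 and Igf2 r = 0.621 and H19 and Afp r = 0.548, as descriptions of 6 samples that hold 2 groups.

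**Figure D3:**
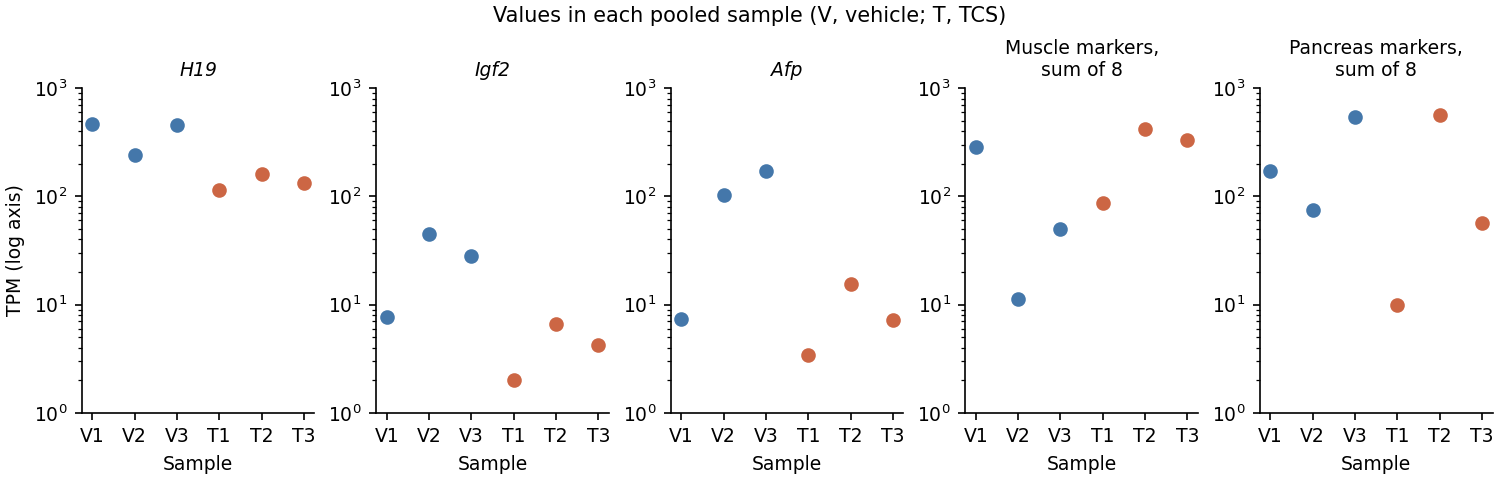
TPM on a log axis in each pooled sample (V, vehicle, in blue; T, TCS, in orange) for H19, Igf2, Afp and the summed markers of muscle and of pancreas. H19 and Igf2 separate the groups, vehicle sample 1 is low for Igf2 and Afp, and the marker sums differ within both groups.

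None of the other 4 genes tested around H19 and Igf2 had groups that did not overlap. Mrpl23, a mitochondrial ribosomal protein gene, had a log2 fold change of -0.20 and Lsp1, a leukocyte actin-binding protein gene, one of 0.18. Tnnt3 and Tnni2, which encode fast skeletal muscle troponins, were at 74.2, 2.27 and 13.9 TPM and at 52.6, 0.663 and 9.46 TPM in vehicle, and at 21.7, 111 and 81.1 TPM and 15.5, 73.9 and 55.7 TPM in TCS. Tnnt3 is itself among the 8 muscle markers. The insulin gene Ins2, which lies beside Igf2, reached at most 1.17 TPM.

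Mest encodes a protein of the alpha/beta-hydrolase fold and lies at chr6:30723547-30748465 on the plus strand (ENSMUSG00000051855). It was at 8.25, 6.94 and 9.16 TPM in vehicle and at 9.40, 10.8 and 12.3 TPM in TCS. The lowest TCS sample stood just above the highest vehicle sample. The log2 fold change of Mest was 0.38 (SE 0.13) with an adjusted p of 0.175 by limma, and was 0.25 above the median of all genes. Copg2, a coat protein gene, overlaps Mest by 912 bases on the opposite strand and had 0.24 (adjusted p = 0.239), and the methods describe strand-specific counting, for FPKM. Whether the TPM values kept the strand is not described, so the split of reads from the overlap is uncertain. Cep41, a ciliary protein gene beside them, had 0.29, and Cpa1, a pancreatic carboxypeptidase gene in the same neighbourhood, was at 11.7, 4.75 and 40.5 TPM in vehicle and 0, 40.6 and 3.21 TPM in TCS.

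Cdkn1c encodes p57, an inhibitor of cyclin-dependent kinases, and lies 791.522 kb from Igf2 at chr7:143458339-143461050 on the minus strand (ENSMUSG00000037664). It was at 11.6, 11.8 and 10.3 TPM in vehicle and at 7.46, 11.4 and 9.58 TPM in TCS, and the groups overlapped. The log2 fold change of Cdkn1c was -0.24 (SE 0.15, adjusted p = 0.368 by limma). Its neighbours Slc22a18, Cd81 and Nap1l4 had log2 fold changes of 0.11, 0.096 and 0.036, and Cars and Tssc4 had 0.27 and 0.29. Osbpl5, in the same neighbourhood, had -0.066. Kcnq1 reached 1.16 TPM at most. The related inhibitor Cdkn1a (p21) was at 25.2, 8.20 and 3.33 TPM in vehicle and 2.51, 2.93 and 4.83 TPM in TCS, with overlap and an adjusted p of 0.279 by limma.

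Grb10 encodes an adaptor that binds and inhibits the insulin and IGF1 receptors, and lies at chr11:11930508-12038683 on the minus strand (ENSMUSG00000020176). It was at 9.99, 9.37 and 11.2 TPM in vehicle and at 8.42, 12.1 and 12 TPM in TCS. The TCS samples held both the lowest and the highest value. The log2 fold change of Grb10 was 0.069 (SE 0.15, adjusted p = 0.80 by limma), and turned to -0.072 with median-of-ratios rescaling and -0.052 with quantile normalization. Ddc, which encodes aromatic amino acid decarboxylase and lies next to Grb10, was at 20.0, 11.0 and 22.2 TPM in vehicle and at 34.8, 37.9 and 46.6 TPM in TCS. Its groups did not overlap, as for 25.1% of all genes tested with TCS higher, and it had 1.17 on the log2 scale (adjusted p = 0.0981). The other neighbours tested, Fignl1, Ikzf1 and Cobl, had 0.60, 0.23 and 0.19, each with overlap.

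Plagl1 encodes a zinc finger transcription factor, also called Zac1, and lies at chr10:13060504-13131694 on the plus strand (ENSMUSG00000019817). It was at 2.43, 2.29 and 2.06 TPM in vehicle and at 1.89, 2.16 and 1.72 TPM in TCS. Apart from TCS sample 2, the TCS samples lay below the vehicle samples. The log2 fold change of Plagl1 was -0.16 (SE 0.11, adjusted p = 0.427 by limma). Its neighbour Ltv1, a ribosome biogenesis factor gene, had 0.41 (adjusted p = 0.0997), and the other 4 neighbours tested, Fuca2, Utrn, Phactr2 and Sf3b5, had values between 0.076 and 0.23.

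Peg3 encodes another zinc finger protein and lies at chr7:6703892-6730431 on the minus strand (ENSMUSG00000002265). It was at 16.2, 13.3 and 16.9 TPM in vehicle and at 11.1, 17.0 and 17.3 TPM in TCS. The groups covered each other, with a log2 fold change of -0.048 (SE 0.18, adjusted p = 0.889 by limma). In its neighbourhood Clcn4, a chloride transporter gene, had a log2 fold change of 0.019.

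Dlk1 and Meg3 lie 77.7 kb apart on mouse chromosome 12, Dlk1 (ENSMUSG00000040856) at chr12:109452823-109463336 and Meg3 (ENSMUSG00000021268) at chr12:109541001-109571726, both on the plus strand. Dlk1 was at 0.298, 0.403 and 0.162 TPM in vehicle and at 0.159, 0.179 and 0.234 TPM in TCS. These values are below the level at which genes were tested. Meg3, a long noncoding RNA of the maternal chromosome, was at 6.72, 9.29 and 9.64 TPM in vehicle and at 4.4, 8.99 and 6.74 TPM in TCS. The groups of Meg3 overlapped, and its log2 fold change was -0.34 (SE 0.24, adjusted p = 0.428 by limma). Rian, another maternally expressed noncoding RNA farther along the same domain, was at 4.52, 4.70 and 5.44 TPM in vehicle and at 4.06, 8.33 and 5.83 TPM in TCS. Its log2 fold change was 0.22 (adjusted p = 0.561). Among the other neighbours tested, Slc25a29 had -0.34 and Wars 0.26, both without overlap, and Yy1 and Wdr25 had 0.12 and 0.22.

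Slc38a4 lies at chr15:96994820-97055956 on the minus strand (ENSMUSG00000022464). It was at 368, 452 and 386 TPM in vehicle and at 330, 394 and 399 TPM in TCS. The groups overlapped, with a log2 fold change of -0.10 (SE 0.11, adjusted p = 0.597 by limma). Slc38a2, a neighbouring transporter gene of the same family, was at 94.2, 78.9 and 79.7 TPM in vehicle and at 49.1, 50.1 and 78.3 TPM in TCS. All TCS samples of Slc38a2 lay below all vehicle samples, with a log2 fold change of -0.53 (adjusted p = 0.175). Slc38a3, the liver glutamine transporter of the family, had 0.026. Of the other neighbours tested, Rpap3 had 0.33, without overlap, and Amigo2 had -0.27, with overlap. The groups of Slc38a4 overlapped while those of H19 did not, and the ratio of Slc38a4 to H19 was 0.781, 1.88 and 0.843 in vehicle and 2.87, 2.45 and 3.02 in TCS.

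TCS sample 1 was the lowest of its group for 8 of the 9 members tested, the sample being lowest for 55.2% of all genes tested. Without it the log2 fold change was -1.35 for H19, -1.85 for Igf2 and 0.47 for Mest, and that of Peg3 turned to 0.15.

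Genes that act with Igf2 were examined as a list of 23 genes of the IGF and insulin axis. Of its 18 genes tested 0 passed. At an unadjusted p under 0.05, 5 were higher with TCS and 2 lower, 27.8% and 11.1%, against 19.5% and 3.5% of all genes. With median-of-ratios rescaling 2 were higher and 5 lower, 11.1% and 27.8%, against 8.29% and 8.76%. The balance of the list thus turned with the scaling, whereas that of all genes evened out. The median of the list was 0.030. Binding proteins held both ends of the list. Igfbp1, which is secreted by the liver and binds IGFs, was at 946, 617 and 513 TPM in vehicle and at 236, 254 and 346 TPM in TCS. The groups of Igfbp1 did not overlap, and the log2 fold change was -1.28 (adjusted p = 0.0882 by limma). Igfbp2 averaged 604 ± 90.2 TPM in vehicle and 373 ± 56.8 TPM in TCS, with -0.69 (adjusted p = 0.0973). Igfbp4 had -0.13. At the other end Igfbp5, picked with its values in view, had 0.63 (adjusted p = 0.178) with groups that overlapped.

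Igf1, the growth factor that takes over from Igf2 after birth, averaged 474 ± 72.0 TPM in vehicle and 589 ± 93.9 TPM in TCS, with a log2 fold change of 0.31 (adjusted p = 0.261 by limma). Its ratio to Igf2 was 60.8, 9.02 and 19.7 in vehicle and 263.5, 82.8 and 166 in TCS. All ratios with TCS lay above all ratios with vehicle. The groups of Igf1 overlapped and those of Igf2 did not, so the ratio mostly restates the difference in Igf2. Igf2r, the maternally expressed receptor that clears Igf2, averaged 9.54 ± 0.896 TPM in vehicle and 12.8 ± 1.81 TPM in TCS, with 0.38 (adjusted p = 0.153) and was picked with its values in view. The antisense RNA Airn overlaps Igf2r, with the same uncertainty as for Mest.

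Over the 62 neighbours listed for all members, 31 were tested and 0 passed. At an unadjusted p under 0.05 there were 6 higher and 2 lower, 19.4% and 6.45% of those tested, close to the 19.5% and 3.5% of all genes, and 3 each way with median-of-ratios rescaling. Their median of 0.21 was 0.084 above that of all genes. In a list of 14 other fetal liver genes 8 were tested, and their median was -0.33. At an unadjusted p under 0.05, 3 were lower and 0 higher, against 3.5% and 19.5% of all genes. With median-of-ratios rescaling 5 were lower and 0 higher, against 8.76% and 8.29%. Besides Afp the most abundant were Ahsg, the plasma protein fetuin, at 18600 ± 2207 TPM in vehicle and 13733 ± 153 TPM in TCS (log2 fold change -0.43, adjusted p = 0.105 by limma), the fatty acid elongase gene Elovl2 with 0.22 (adjusted p = 0.278) and the lipoprotein lipase gene Lpl with 0.19 (adjusted p = 0.479). The values of Elovl2 and Lpl thus lay above 0. Gpc3 and Tff3 had the smallest adjusted p of the list and were picked with their values in view. Gpc3, a cell surface proteoglycan gene, averaged 17.0 ± 2.52 TPM in vehicle and 9.13 ± 1.19 TPM in TCS (log2 fold change -0.83, adjusted p = 0.0814 by limma). Tff3, a trefoil peptide gene, averaged 57.3 ± 22.6 and 10.5 ± 6.22 TPM (-2.41, adjusted p = 0.0847). Zhx2 and Zbtb20, listed as repressors of fetal liver genes after birth, differed by 0.24 and 0.45 on the log2 scale, with an adjusted p of 0.270 and 0.307 by limma. Of other regulators placed in the same list, Onecut1 had 0.44 and Trib1 -0.12. In a list of 12 genes of the maturing liver 5 were higher and 2 lower at an unadjusted p under 0.05, against 19.5% and 3.5% of all genes. Its median was 0.49. With median-of-ratios rescaling 4 were higher and 2 lower, against 8.29% and 8.76%. The most abundant genes of that list lay on both sides of 0. Cyp3a11 had 1.34 and Cyp2c29 1.29 (adjusted p = 0.134 and 0.0576 by limma). Tat had -0.89 and Cyp2e1 -0.23 (adjusted p = 0.107 and 0.454).

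Over all genes 11 passed the threshold with TCS higher and 12 with TCS lower, or 10 and 19 with median-of-ratios rescaling. That rescaling took the median of all genes from 0.13 to -0.0022. H19 had a log2 fold change between -1.86 and -1.26 over 15 other settings, with an adjusted p by limma from 0.0274 to 0.250, and it passed in 2 of them. These were the fit with array weights, where it had -1.41 (adjusted p = 0.0274), and the fit without vehicle sample 2, where it had -1.78 (adjusted p = 0.0384). Igf2 lay between -2.90 and -1.46 (adjusted p from 0.104 to 0.397) and Mest between 0.24 and 0.47 (adjusted p from 0.0720 to 0.493).

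**Figure D4:**
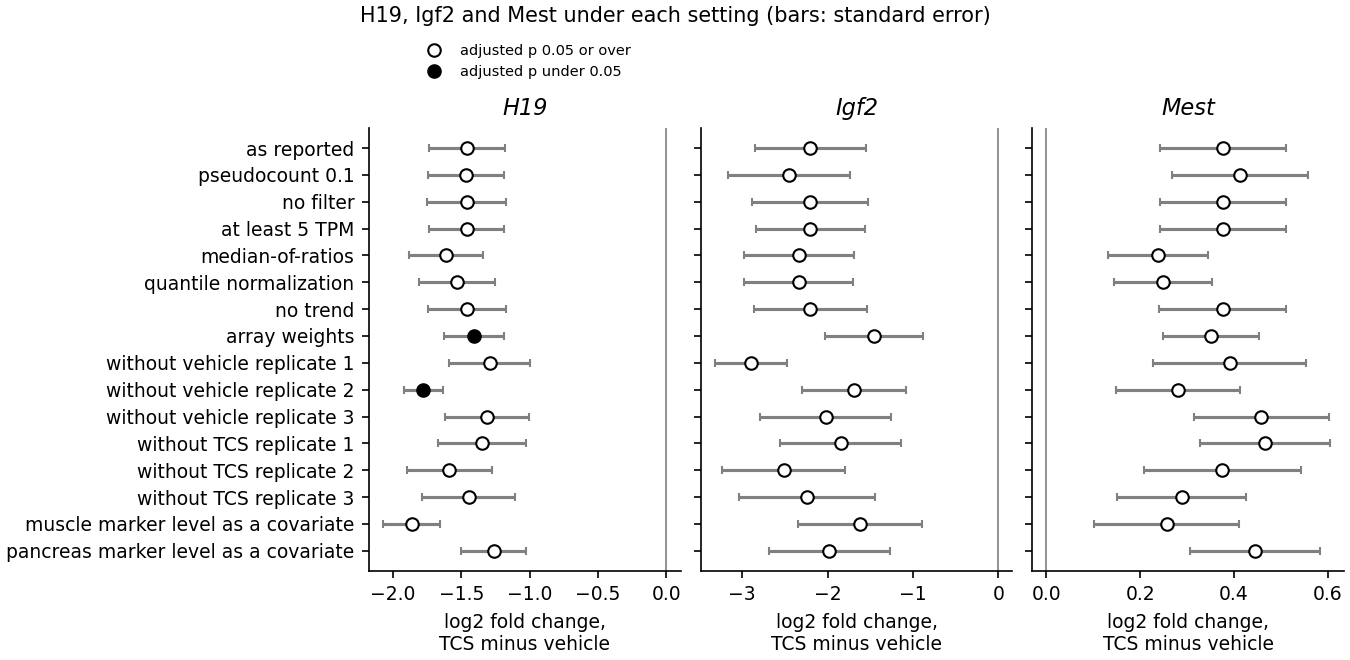
Log2 fold change, TCS minus vehicle, of H19, Igf2 and Mest as reported and under 15 other settings, with bars of ± 1 standard error. H19 and Igf2 stay below 0 and Mest above 0 in each setting shown, and filled points mark the 2 settings with an adjusted p under 0.05, both for H19.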

How the data were processed

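Liver RNA of 21-day-old mice was sequenced in 6 samples, 3 per group, each pooled from 3 mice. The submitters' processing notes name bcl2fastq 2.17.1.14, STAR 2.2.0c, HOMER and the mm10 build. The methods describe FPKM over RefSeq exons, whereas the authors deposited TPM under Ensembl identifiers, rounded to 3 significant digits, and the step between is not given in the sources used here. Read depth is unknown, and counting error was therefore not estimated. A second sheet, the authors' own fold changes and adjusted p-values, was not used. Column names give the group but cannot be tied to single samples, so the sample numbers used here are those of the columns. The methods give only a minimum number of independent litters per treatment group, and nothing says which litters a pool holds. The 3 samples of a group therefore need not be 3 independent exposures, and p-values measure the spread between these samples.

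Genes that reached 1 TPM in 3 or more samples entered limma 3.58.1 (R 4.3.3; tables with Python 3.11.15 and pandas 2.3.3) as log2(TPM + 1), with a variance trend and Benjamini-Hochberg adjustment over all 13325 genes. The test was also run on simulated data. Alternatives were a smaller pseudocount (0.1), all genes without a filter, a stricter filter (5 TPM), median-of-ratios and quantile scaling, no trend, array weights and each sample left out. Muscle and pancreas marker levels as covariates were added after seeing the data. Named genes are the members, up to 4 genes per other list by mean TPM where none passed, neighbours reaching 1 TPM, and the 3 genes most correlated with Slc38a4 and H19. Some genes under this rule are left out, and genes outside it are named as picked with their values in view. Unadjusted counts after rescaling were added after seeing the data. The members and lists were chosen with earlier results of these data known. Coordinates are from GENCODE M21 and sequences from RefSeq.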

Additional observations from a re-analysis of the deposited data

How the results depend on the processing

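Of 15 alternatives, 13 planned, the number of members past the threshold was 0 in 13 and 1, H19, in the other 2, the fit with array weights and the fit without vehicle replicate 2. Leaving out each sample in turn thus gave 0 to 1. H19, Igf2, Mest, Cdkn1c, Plagl1 and Slc38a4 kept their direction in every alternative run, Plagl1 in 14, since it could not be tested at 5 TPM. Grb10 turned to -0.072 with median-of-ratios scaling, -0.052 with quantile normalization and -0.061 with the muscle covariate. Peg3 turned to 0.042 and Meg3 to 0.0020 with array weights, and Peg3 to 0.097 with the pancreas covariate. When samples were left out in turn Grb10 ranged from -0.012 to 0.23 and Peg3 from -0.15 to 0.15. The cause was not tested. Calls over all genes, 11 higher and 12 lower, became 35 and 24 at 5 TPM, 1006 and 234 with array weights, 8 and 20 with quantile normalization, 22 and 7 without vehicle replicate 2, and 0 and 0 by limma with no filter (3123 and 714 at an unadjusted p under 0.05), with the muscle covariate (1388 and 374) and when TCS replicate 3 was left out (1580 and 453). They were 1 and 3 when either vehicle replicate 1 or TCS replicate 1 was left out, 0 and 1 when TCS replicate 2 was, and 2 and 1 with the pancreas covariate. With an arm of 2 samples the spread is shared between groups. No paired analysis was possible because the numbers in the column names occur in no sample label. Depth is unknown, so the limit it sets on Dlk1 and the microRNA genes listed at 0 is unknown too.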

Other observations

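Genes that maintain imprints were examined as a list of 16, of which 11 were tested and 0 passed by limma, with 3 higher and 0 lower at an unadjusted p under 0.05, against 19.5% and 3.5% of all genes, and with the same counts against 8.29% and 8.76% under median-of-ratios rescaling. Zfp445, a zinc finger protein that protects imprints, averaged 23.0 ± 2.42 TPM in vehicle and 30.8 ± 0.503 TPM in TCS (SD, n = 3), a difference of 0.41 on the log2 scale with an adjusted p of 0.0975 by limma. Trim28, the corepressor that zinc finger proteins recruit to imprinted regions, had 0.20 (adjusted p = 0.218), the insulator protein gene Ctcf 0.10 (adjusted p = 0.538) and the DNA methyltransferase gene Dnmt3a 0.18 (adjusted p = 0.460). The list's median was 0.045 above that of all genes, and DNA methylation was not measured.

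Among 40 other imprinted genes 24 were tested and 0 passed by limma, with 7 higher and 1 lower at an unadjusted p under 0.05, against 19.5% and 3.5% of all genes, or 4 and 2 with median-of-ratios rescaling, and their median of 0.16 was 0.033 above that of all genes. Their median thus lay near that of all genes, while the median of the growth genes above lay 0.29 below it. A median below that of all genes was not particular to the growth genes. The difference from the all-gene median was -0.32 for hepatocyte markers, -0.26 for erythroid markers and -0.46 for the other fetal liver genes. It was -0.54 for neutrophil markers and -1.51 for pancreas markers. Other lists lay above the all-gene median, muscle markers farthest at 1.68. Gnas, which encodes a G protein subunit, had 0.18 on the log2 scale (adjusted p = 0.151) and Dcn, the proteoglycan decorin, -0.16 (adjusted p = 0.200), while H13 and Commd1 had 0.10 and 0.058.

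The genes with the pattern most like that of H19 over the 6 samples were Katnal1, F7 and Tm4sf4, each with r = 0.983 on the log2 scale, and 15 genes reached 0.95. For Slc38a4 they were Klhl24 (r = 0.983), Gtpbp2 (r = 0.981) and Foxo4 (r = 0.980), and 21 genes reached 0.95. With 6 samples in 2 groups and 13325 genes searched, these are descriptions of likeness in these samples only.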
